A study of Mus musculus with 18 samples.

Results

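Ion channel genes were examined in the hearts of mice after myocardial infarction. All gene symbols that begin with Kcn or Cacn, or with Scn or Hcn followed by a digit, were chosen by their level: 3 or more of the 18 libraries had to show 1 FPKM or more. FPKM divides fragments by transcript length and by how many fragments of a library were mapped, so levels can be set side by side between genes. The tables hold 131 such symbols among 18414 genes, and 57 passed. The other 74 did not reach that level, and 0 of them were at 0 in every library. The limit used levels alone and no difference between groups, and 0 of the 57 passed through the libraries of a single group. The channel families themselves were chosen with earlier results of these data known. Among the genes just inside the limit, the third-highest values were 1.13 FPKM for Cacna1d and 1.18 for Kcnab1. Just outside it they were 0.99 FPKM for Kcna1, 0.94 for Kcnmb1 and 0.86 for Cacna1a.

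Contraction of the heart is set off by currents through these proteins. Sodium channels carry the upstroke of the action potential, L-type calcium channels hold its plateau and trigger calcium release, and potassium channels bring the membrane back to rest and keep it there. Pacemaker (HCN) channels carry the current that drives spontaneous firing of sinus node cells, and many pore subunits work with auxiliary subunits that set their surface density or gating. After an infarct, remodelling of these currents in surviving muscle is known to favour arrhythmia.

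Every heart had an infarct, and each of the 6 groups has 3 libraries. The aNMP-2a_D3 mice received the nanomedicine aNMP-2a on day 3 and the PBS_D3 mice received PBS (buffer), with tissue on day 4. The aNMP-2a+2b_D7 and aNMP-2a+PBS_D7 mice all had aNMP-2a on day 3. They then had aNMP-2b or PBS on day 7, and hearts were removed on day 8. The aNMP-2a+2b+2c_D14 and aNMP-2a+2b+PBS_D14 mice had aNMP-2a on day 3 and aNMP-2b on day 7. Last, they had aNMP-2c or PBS on day 14, and hearts were removed on day 15. Each comparison therefore asks what the last injection changed 1 day later, in mice with the same earlier injections. Strain, sex and age are not given in the labels. Nor do the labels state that libraries of a group come from separate animals, so the spread behind each p-value is that of these samples and may be technical.

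Libraries summed to between 704356 and 814452 FPKM, and between 12181 and 12821 genes reached 1 FPKM. The heart muscle list (Tnnt2, Tnni3, Actc1, Ttn, Myh6, Ryr2, Pln and Myl2) summed to between 27479 FPKM in aNMP-2a+2b_D7 replicate 2 and 62424 FPKM in aNMP-2a+2b+PBS_D14. The atrial gene Myl7 separated the libraries: it had 85.1 to 2982 FPKM in 8 of them and 0.24 to 8.26 FPKM in the other 10. The 8 were 2 of 3 in aNMP-2a_D3 and 0 of 3 in PBS_D3, 2 of 3 in aNMP-2a+2b_D7 and 1 of 3 in aNMP-2a+PBS_D7, and 1 of 3 in aNMP-2a+2b+2c_D14 and 2 of 3 in aNMP-2a+2b+PBS_D14. No counts are given, and depth is unknown. In whole tissue, fewer cells of a type and less RNA per cell cannot be told apart.

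Levels are given as the range over the 18 libraries. Among sodium channel pores, Scn7a, a sodium-sensing relative found in glia and other non-muscle cells, had 4.78 to 9.12 FPKM, and Scn4a, the pore of skeletal muscle, had 0.93 to 5.51 FPKM. Scn10a, best known from sensory neurons, lay between 0.21 and 3.66 FPKM. Of the beta subunits, which modify those pores, Scn4b had 0.68 to 13.9 FPKM and Scn3b had 0.31 to 1.83 FPKM.

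Of the calcium pores, Cacna1c, the L-type channel of ventricular muscle, had 15.3 to 26.1 FPKM. Cacna1d, the L-type pore used in the sinus node and atria, had 0.49 to 1.36 FPKM. The T-type pores Cacna1g and Cacna1h had 2.61 to 6.46 and 1.23 to 5.17 FPKM. The auxiliary subunits that pair with Cacna1c in muscle were close to its level, at 14.9 to 25.1 FPKM for Cacna2d1 and 11.1 to 21.4 FPKM for Cacnb2. Cacnb3, a beta subunit common in nerve and immune cells, ranged more widely, from 3.96 to 19.8 FPKM. The pacemaker genes that passed were Hcn2, at 4.85 to 11.7 FPKM, and Hcn4, the main form of the sinus node, at 0.90 to 2.11 FPKM. The conduction system list (Shox2, Isl1, Tbx3, Tbx18, Cntn2 and Gja5) summed to 11.2 to 25.8 FPKM. Of its 6 genes, 3, 3 and 4 were tested on days 3, 7 and 14, with 0 called in each comparison.

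Potassium channels made up 36 of the 57 genes. The highest of all was Kcnip2, the auxiliary subunit of the fast transient outward current, with 43.8 to 122.8 FPKM. Its pores Kcnd2 and Kcnd3 had only 1.76 to 5.93 and 1.26 to 2.86 FPKM. Kcnk3, an acid-sensitive leak channel, had 31.4 to 67.9 FPKM, and Kcnj11, the pore of the ATP-sensitive channel of muscle, had 32.2 to 60.6 FPKM. Kcng2, a silent subunit that modifies other pores, had 26.4 to 42.9 FPKM. Kcnj8, the ATP-sensitive pore of vessel walls, had 20.7 to 34.9 FPKM. Of the delayed rectifiers, Kcnh2 had 17.9 to 35.9 FPKM, Kcnq1 had 13.7 to 24.5 FPKM and Kcna5 had 6.87 to 26.7 FPKM. The strong inward rectifiers Kcnj2 and Kcnj12, which hold the resting potential, had 4.40 to 10.9 and 4.11 to 11.48 FPKM. Kcnq1 holds the antisense RNA Kcnq1ot1, whose reads cannot be told apart from its own without strand. Of the 57 genes, 10 averaged over 20 FPKM, 31 lay between 2 and 20 FPKM and 16 averaged under 2 FPKM. In all, 37 reached 1 FPKM in every library. Fold changes of the low ones are understated, because 0.5 FPKM is added before the log is taken.

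**Figure D1:**
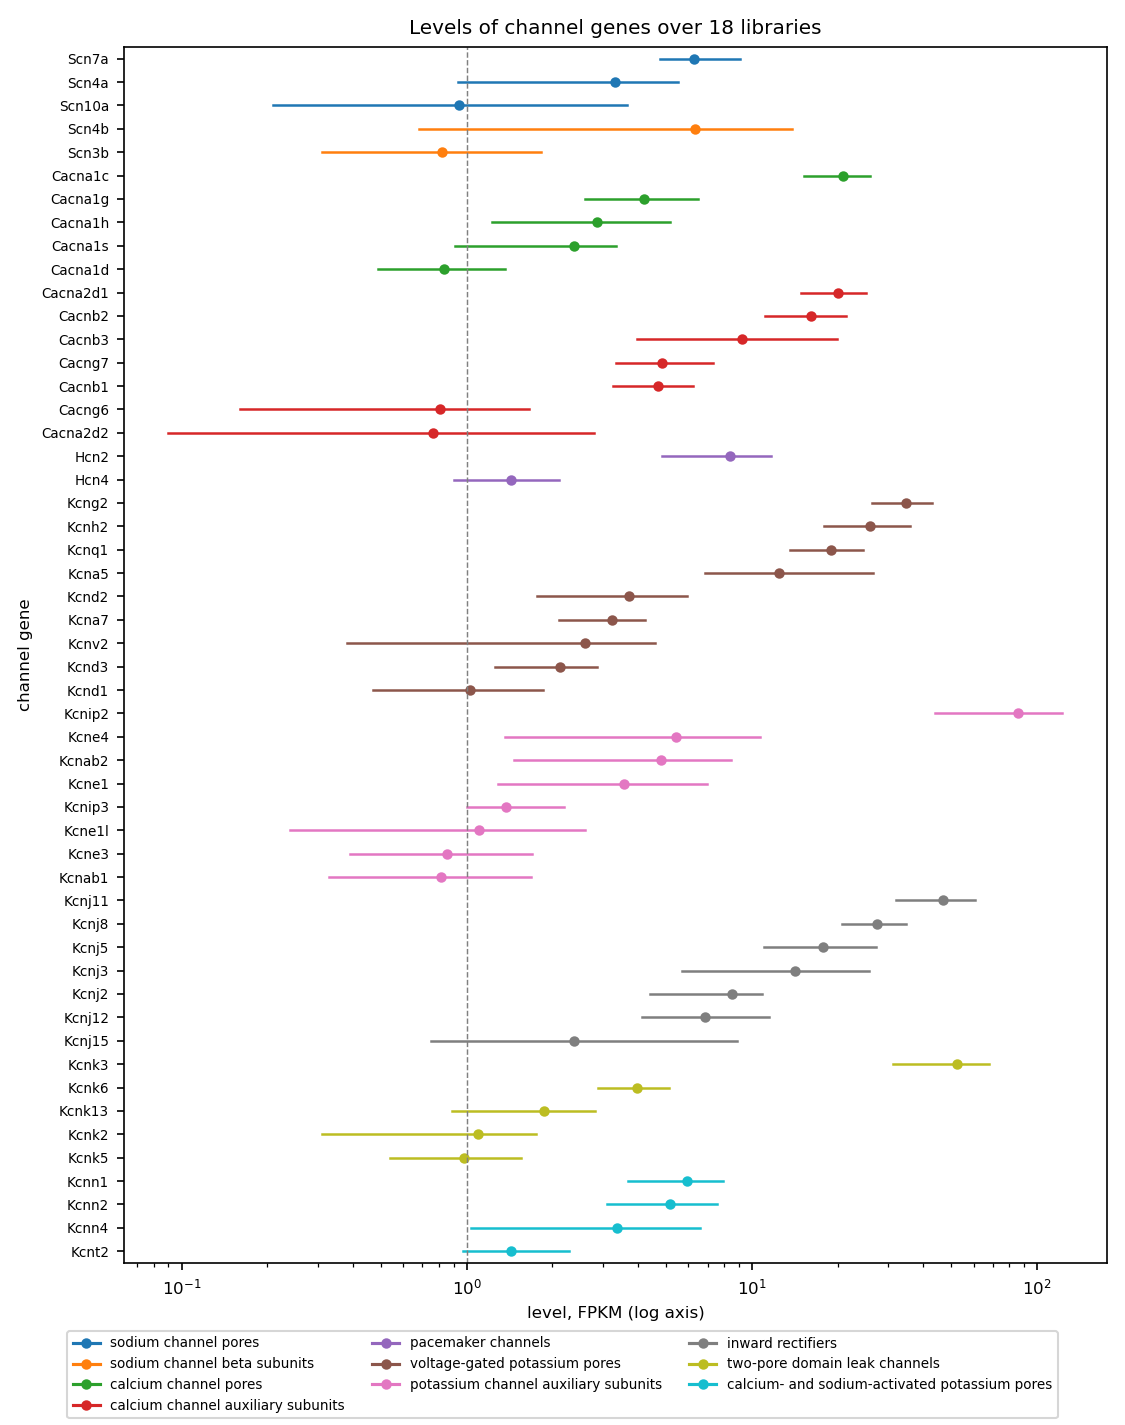
Mean level (point) and range over 18 libraries (line) of 52 channel genes in FPKM on a log axis, coloured and ordered by role. The dashed line marks 1 FPKM, and Kcnip2 lies highest, with 43.8 to 122.8 FPKM.

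The acetylcholine-gated potassium channel of atria and sinus node is built of the products of Kcnj3 and Kcnj5, and Kcnj3 was the channel gene called on day 3. The 250 bases before an annotated start of each gene are shown because they are partners whose values are compared below, with 1 of the 3 windows listed for Kcnab2, chosen because it holds the same motif. These starts lie inside the annotated span of each gene, not at its outer end. Sequences are from RefSeq on GRCm38.p6, written 5′ to 3′ on the gene's strand, at chr2:55435720-55435969 (plus strand) for Kcnj3, chr9:32344345-32344594 (minus strand) for Kcnj5 and chr4:152448856-152449105 (minus strand) for Kcnab2. Capitals mark the T-box core GGTGTG, read on either strand, the letters bound by T-box factors such as Tbx5.
Kcnj3: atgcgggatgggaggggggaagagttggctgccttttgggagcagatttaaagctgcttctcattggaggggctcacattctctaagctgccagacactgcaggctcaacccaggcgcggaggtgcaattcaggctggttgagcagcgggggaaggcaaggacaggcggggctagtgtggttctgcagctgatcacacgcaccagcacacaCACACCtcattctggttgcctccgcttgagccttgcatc
Kcnj5: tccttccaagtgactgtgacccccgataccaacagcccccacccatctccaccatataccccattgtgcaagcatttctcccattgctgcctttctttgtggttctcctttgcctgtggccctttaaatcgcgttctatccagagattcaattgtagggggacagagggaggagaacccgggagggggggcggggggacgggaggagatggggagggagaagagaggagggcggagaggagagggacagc
Kcnab2: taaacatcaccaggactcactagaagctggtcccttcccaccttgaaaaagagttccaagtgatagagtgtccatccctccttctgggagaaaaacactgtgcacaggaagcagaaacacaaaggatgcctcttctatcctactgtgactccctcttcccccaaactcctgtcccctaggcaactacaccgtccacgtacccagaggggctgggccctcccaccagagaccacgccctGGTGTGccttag
The core was present in the Kcnj3 window at bases -39 to -34 and in the Kcnab2 window shown at -12 to -7, with 0 matches in the other two Kcnab2 windows, and these letters are not in the Kcnj5 window. Of all 32851 promoter windows of this length, 16.3% hold the core, and of the 57 windows listed for 40 channel genes, 7 hold it (12.3%). The circadian E-box CACGTG was in 5 of the 57 windows, against 6.02% of all windows. The D-box TTATGTAA was in 0 of the 57, against 0.819% of all windows. That start of Kcnj3 lies opposite an exon of the antisense gene Gm26794 in the GENCODE vM21 annotation. Whether the counting used strand is not given in the sources used here, so reads of that region cannot be assigned to a strand.

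On day 3, aNMP-2a against PBS, 1 of the 49 channel genes tested rose and 0 fell. The gene was Kcnj3 (chr2:55411798-55598145). Over all 12512 genes tested, 1.84% were called, 1.41% higher and 0.432% lower, so 1 of 49 is close to the background. At an unadjusted p under 0.05 there were 9 of the 49, against 16.8% of all genes. The median log2 fold change was 0.00 for the channel genes and 0.03 for all genes. All fold changes are on the log2(FPKM + 0.5) scale, and calls are at a limma adjusted p under 0.05.

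Kcnj3 had 19.2, 16.0 and 25.9 FPKM in aNMP-2a_D3, against 10.5, 11.7 and 9.86 FPKM in PBS_D3. Every treated library was above every PBS library. Its mean was 20.4 ± 5.0 FPKM in aNMP-2a_D3 and 10.7 ± 0.92 FPKM in PBS_D3 (SD, n = 3 each), a log2 fold change of 0.88 ± 0.16 (SE, limma adjusted p = 0.0459). Its partner Kcnj5 had 27.0, 15.9 and 21.2 FPKM in aNMP-2a_D3, against 17.3, 17.3 and 14.5 FPKM in PBS_D3. These groups overlap, because the second treated library lies between the PBS values. That library is also the one with Myl7 at 2.56 FPKM, against 1312 and 2982 FPKM in the other treated libraries and at most 1.28 FPKM in PBS_D3. It still had more Kcnj3 than each PBS library.

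The call on Kcnj3 was at the edge of the threshold and held in 6 of 18 alternatives. With an atrial score as covariate its log2 fold change was 0.53 (limma adjusted p = 0.29). Without the libraries rich in Myl7 it was 0.56. That fit, counted among the 18, leaves a lone treated library assumed to vary like the others, so no call is read from it. The call also ended without any 1 of the 3 PBS_D3 libraries (limma adjusted p = 0.166, 0.11 and 0.174) and without aNMP-2a_D3 replicate 1 (limma adjusted p = 0.0773), while the log2 fold change stayed between 0.53 and 1.03 in the alternatives run, whose adjusted p lay between 0.0218 and 0.69.

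Among calcium channels, Cacna1h (chr17:25374285-25436334) had 4.19, 2.5 and 4.76 FPKM in aNMP-2a_D3, against 1.44, 1.98 and 1.23 FPKM in PBS_D3. The groups do not overlap, but the difference did not pass (log2 fold change 1.05 ± 0.23, SE, limma adjusted p = 0.073). With the atrial score as covariate the log2 fold change was 0.51. Cacna1c had 20.7, 20.2 and 15.3 FPKM in aNMP-2a_D3, against 25.8, 22.5 and 21.2 FPKM in PBS_D3, again without overlap and without a call (log2 fold change -0.31 ± 0.13, SE, limma adjusted p = 0.287). Cacna1h and Cacna1c thus lay on opposite sides of their PBS libraries.

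The sodium channel beta subunit Scn4b (chr9:45138624-45154155), which shapes resurgent and late sodium current, had the widest difference of the channel genes tested on day 3. It had 6.97, 5.16 and 3.29 FPKM in aNMP-2a_D3, against 13.3, 13.9 and 9.98 FPKM in PBS_D3. The highest treated library was below the lowest PBS library. The log2 fold change was -1.23 ± 0.25 (SE) and missed the threshold (limma adjusted p = 0.0746). It passed without aNMP-2a_D3 replicate 1 (limma adjusted p = 0.0363), within 0.016 to 0.645 over all alternatives run. Its log2 fold change lay between -1.46 and -0.97 in them. Without the libraries rich in Myl7, aNMP-2a_D3 replicate 2, at 5.16 FPKM, is the lone treated library, so no call is read from that fit. The sodium-sensing Scn7a had 5.57, 9.12 and 8.02 FPKM in aNMP-2a_D3, and 5.5, 5.5 and 5.42 FPKM in PBS_D3.

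Among potassium channel subunits, Kcne1l, a modifier of the Kcnq1 pore also called Kcne5, had 1.5, 1.72 and 2.2 FPKM in aNMP-2a_D3, against 1.00, 0.88 and 0.77 FPKM in PBS_D3 (log2 fold change 0.73 ± 0.16, SE, limma adjusted p = 0.063). Kcnt2, a sodium-activated potassium pore, had 1.53, 2.18 and 2.29 FPKM in aNMP-2a_D3, against 0.97, 1.40 and 1.04 FPKM in PBS_D3 (log2 fold change 0.61 ± 0.17, SE, limma adjusted p = 0.14). Both pairs of groups are separate, and neither passed. In all, 8 of the 49 genes had every treated library above every PBS library and 3 had every one below, against 14.4% and 8.5% of all genes tested (22.9% together). The voltage-gated class has 12 genes, counting the silent subunit Kcng2 with the pores, and 11 were tested. None of them was called, and 0 had an unadjusted p under 0.05. Of the transient outward genes, Kcnip2 had 84.1, 82.2 and 75.1 FPKM in aNMP-2a_D3, and 82.2, 86.4 and 74.0 FPKM in PBS_D3. Its pore Kcnd2 had 4.56, 5.93 and 1.76 FPKM in aNMP-2a_D3, and 5.09, 3.92 and 3.15 FPKM in PBS_D3. The groups overlap in both genes, and the Kcnd2 difference is imprecise (log2 fold change -0.10 ± 0.41, SE, limma adjusted p = 0.923).

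Other tissue genes moved with the day 3 comparison. The heart muscle list, with 8 of 8 genes tested and 0 called, had 6 negative values and a median of -0.08. It summed to 37498 to 44381 FPKM in aNMP-2a_D3, against 44416.5 to 47268 FPKM in PBS_D3, narrowly without overlap. The atrial list (Myl7, Myl4, Sln, Mybphl and Bmp10) had 2 of 5 genes tested and 0 called, and summed to 6.43 to 5694 FPKM in aNMP-2a_D3, against 2.41 to 3.78 FPKM in PBS_D3. The smooth muscle and pericyte list had 1 of 7 tested genes called (Acta2, lower) and summed to 370 to 385 FPKM in aNMP-2a_D3, against 536 to 593 FPKM in PBS_D3. The vessel-wall pore Kcnj8 had 27.7, 27.4 and 22.5 FPKM in aNMP-2a_D3, against 29.7, 31.7 and 28.6 FPKM in PBS_D3, each treated library below each PBS library. The Kcnj8 difference did not pass (log2 fold change -0.21 ± 0.10, SE, limma adjusted p = 0.314). Of the endothelial list 2 of 6 were called (Kdr and Cldn5, lower), of the mesothelial list 4 of 5 (higher) and of the fibroblast list 1 of 5 (Dcn, higher). Clock genes were called too: Arntl had 1.2 to 2.0 FPKM in aNMP-2a_D3, against 9.0 to 10.6 FPKM in PBS_D3. Except for the atrial alternatives given above, the part of these genes in the channel values was not tested.

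**Figure D2:**
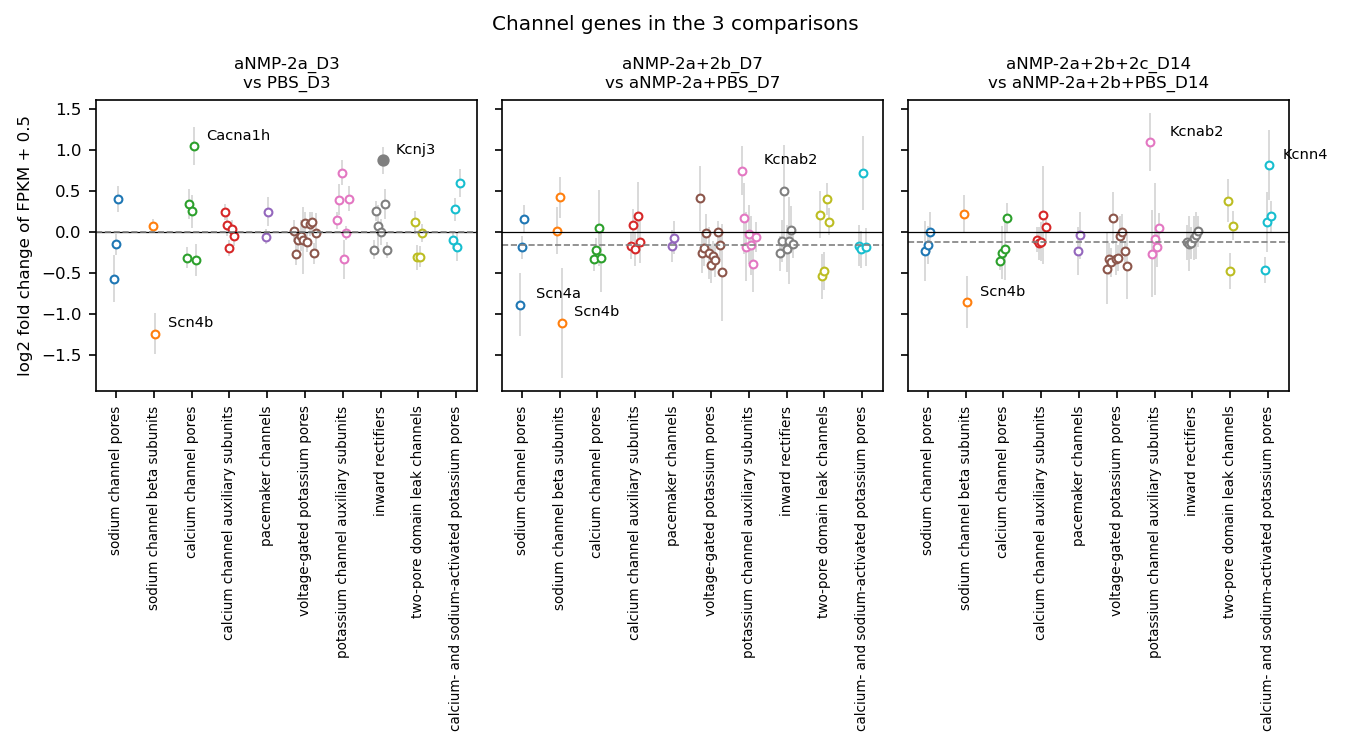
Log2 fold change of FPKM + 0.5 with SE (limma) for each tested channel gene, by role, in 49, 51 and 44 genes on days 3, 7 and 14; the filled point is a call and the dashed line the median of the channel genes. Kcnj3 on day 3 is the only filled point, and the medians are 0.00, -0.16 and -0.12.

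On day 7, aNMP-2b against PBS after earlier aNMP-2a, 0 of 51 channel genes tested were called by limma, and 1 had an unadjusted p under 0.05. Over all 12711 genes the share called was 0.00787%, and 7.78% had an unadjusted p under 0.05. Channel genes leaned lower: 35 of 51 had a negative log2 fold change, against 50.9% of all genes. Their median was -0.16, against -0.00 for all genes. The heart muscle list, with 8 of 8 genes tested and 0 called, summed to 43188, 27479 and 37274 FPKM in aNMP-2a+2b_D7, against 41677, 49687 and 56404 FPKM in aNMP-2a+PBS_D7. Its part in the lower channel values was not tested.

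Kcnab2, a beta subunit of voltage-gated potassium channels (chr4:152390744-152477549), had 5.98, 7.04 and 5.15 FPKM in aNMP-2a+2b_D7, against 5.54, 2.88 and 2.32 FPKM in aNMP-2a+PBS_D7. The groups overlap through the first PBS library (log2 fold change 0.75 ± 0.30, SE, limma adjusted p = 0.623). Without that library the adjusted p was 0.0493 in limma, in a range of 0.0493 to 1.00 over the alternatives run. That library also had the most macrophage RNA of its group: the macrophage list (6 of 6 genes tested, 0 called) summed to 738, 874 and 730 FPKM in aNMP-2a+2b_D7, against 726, 364 and 345 FPKM in aNMP-2a+PBS_D7. The T and NK cell list (6 of 6 tested, Gzma called, higher) summed to 77.7 to 80.1 FPKM in aNMP-2a+2b_D7, against 13.1 to 33.9 FPKM in aNMP-2a+PBS_D7. The part of these lists in the Kcnab2 values was not tested. Kcnk5, an alkaline-activated leak channel, was the 1 gene of 51 with separate groups, against 12.3% of all genes tested and 6.78% in its direction. It had 1.26, 1.28 and 1.44 FPKM in aNMP-2a+2b_D7, and 0.69, 1.15 and 0.84 FPKM in aNMP-2a+PBS_D7 (log2 fold change 0.40, limma adjusted p = 0.699).

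Scn4b had 2.90, 0.68 and 4.24 FPKM in aNMP-2a+2b_D7, against 2.04, 7.86 and 8.32 FPKM in aNMP-2a+PBS_D7, so these groups overlap (log2 fold change -1.10 ± 0.67, SE, limma adjusted p = 0.756). Without the libraries rich in Myl7 this log2 fold change was 0.00208. That fit sets aNMP-2a+2b_D7 replicate 3 alone against aNMP-2a+PBS_D7 replicates 1 and 3. Scn4a had 1.93, 0.93 and 2.69 FPKM in aNMP-2a+2b_D7, against 2.25, 3.96 and 5.12 FPKM in aNMP-2a+PBS_D7 (log2 fold change -0.88 ± 0.38, SE, limma adjusted p = 0.656). The skeletal muscle list, with 3 of 7 genes tested and 0 called, summed to 4.07 to 24.2 FPKM in aNMP-2a+2b_D7, against 5.45 to 46.7 FPKM in aNMP-2a+PBS_D7, and its part in Scn4a was not tested. Kcnj3 had 22.6, 5.69 and 11.1 FPKM in aNMP-2a+2b_D7, and 7.39, 18.9 and 12.8 FPKM in aNMP-2a+PBS_D7, so its values were as spread within groups as between them. Kcnk3 had 53.2, 31.4 and 39.5 FPKM in aNMP-2a+2b_D7, against 44.6, 65.9 and 60.0 FPKM in aNMP-2a+PBS_D7 (log2 fold change -0.47 ± 0.23, SE, limma adjusted p = 0.708).

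On day 14, aNMP-2c against PBS after both earlier agents, 0 of 44 channel genes tested were called by limma, as were 0% of the 12440 genes tested, and 4 of 44 had an unadjusted p under 0.05 (8.55% of all genes). The median log2 fold change was -0.12 for the channel genes and 0.02 for all genes, and 30 of 44 were negative, against 45.2% of all genes. Without aNMP-2a+2b+2c_D14 replicate 1 the median was 0.0120. The heart muscle list, with 8 of 8 genes tested and 0 called, had 7 negative values and a median of -0.34. It summed to 34006 to 53194 FPKM in aNMP-2a+2b+2c_D14, against 49516 to 62424 FPKM in aNMP-2a+2b+PBS_D14, and its part in the channel values was not tested. In 1 gene every treated library was above every PBS library and in 4 every one was below, against 9.95% and 5.43% of all genes tested. The higher one was Kcnab2, with 8.48, 5.29 and 4.62 FPKM in aNMP-2a+2b+2c_D14, against 2.57, 1.47 and 3.99 FPKM in aNMP-2a+2b+PBS_D14 (log2 fold change 1.10 ± 0.35, SE, limma adjusted p = 0.468). The lower ones included Cacna1c and Kcnn1.

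Cacna1c (chr6:118587240-119197384) had 16.6, 20.1 and 18.1 FPKM in aNMP-2a+2b+2c_D14, against 23.9, 21.6 and 24.5 FPKM in aNMP-2a+2b+PBS_D14 (log2 fold change -0.35 ± 0.11, SE, limma adjusted p = 0.475). Kcnn1, a small-conductance calcium-activated potassium pore, had 4.39, 6.23 and 4.70 FPKM in aNMP-2a+2b+2c_D14, against 6.86, 6.69 and 7.95 FPKM in aNMP-2a+2b+PBS_D14 (log2 fold change -0.46 ± 0.16, SE, limma adjusted p = 0.492). In both genes every treated library lay below those given PBS. Scn4b had 4.15, 2.54 and 5.53 FPKM in aNMP-2a+2b+2c_D14, against 10.0, 7.68 and 5.27 FPKM in aNMP-2a+2b+PBS_D14, with 1 treated library above the lowest PBS library (log2 fold change -0.85 ± 0.32, SE, limma adjusted p = 0.538).

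Kcnn4, the calcium-activated potassium pore of lymphocytes and macrophages, had its highest value on this day in the same library as Kcnab2. It had 6.60, 2.13 and 3.19 FPKM in aNMP-2a+2b+2c_D14, and 2.57, 1.04 and 2.13 FPKM in aNMP-2a+2b+PBS_D14, with overlap. Immune marker lists were read beside them, with all 6 genes of each list tested and 0 called. The macrophage list summed to 537 to 887 FPKM in aNMP-2a+2b+2c_D14, against 229 to 551 FPKM in aNMP-2a+2b+PBS_D14, and the T and NK cell list to 42.3 to 89.4 FPKM, against 11.6 to 28.2 FPKM. The groups overlap in the macrophage sum and not in the T and NK cell sum. None of their genes was at 0 throughout, and their part in the Kcnab2 and Kcnn4 values was not tested.

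Whether the 3 effects of the last injection differed was tested as contrasts between them in 1 limma fit of 18 libraries. Agent, day and earlier injections change together across these effects, so their parts cannot be told apart. For day 7 minus day 3, day 14 minus day 3 and day 14 minus day 7, 0 of 57 channel genes were called, as were 0% of 13116 genes. The lowest adjusted p of a channel gene in limma was 0.98, 0.944 and 1.00. At an unadjusted p under 0.05 there were 2, 1 and 0 channel genes, and 629, 642 and 345 genes in all. With 3 libraries a group these contrasts do not show that the effects were alike.

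After the values of Cacna1c, Kcnk3 and Scn4b on the 3 days had been seen, the mean of the 3 effects was taken as a contrast in that fit. This mean averages 3 different agents, each on its own day, so it is not the effect of any single agent. Of the 57 channel genes, 2 were called (3.51%), against 4.41% of all 13116 genes, a share near the background. Cacna1c fell, with a mean log2 fold change of -0.33 ± 0.08 (SE, limma adjusted p = 0.0358). Its group mean was lower on each day, but on day 7 the groups overlap, with 20.07, 16.05 and 18.96 FPKM in aNMP-2a+2b_D7, against 19.33, 26.06 and 24.04 FPKM in aNMP-2a+PBS_D7 (limma adjusted p = 0.689). Its call held in 14 of 29 alternatives, with the log2 value between -0.37 and -0.27 and adjusted p between 0.0102 and 0.345. Kcnab2 rose by 0.67 ± 0.17 (SE, limma adjusted p = 0.0446), and this call held in 9 of 29, with the log2 value between 0.56 and 0.77 and adjusted p between 0.00921 and 0.434. With 1 library left out at a time, Cacna1c stayed called only without aNMP-2a_D3 replicate 1, aNMP-2a+PBS_D7 replicate 1, aNMP-2a+2b_D7 replicate 1 or 3, aNMP-2a+2b+PBS_D14 replicate 3 or aNMP-2a+2b+2c_D14 replicate 2. Kcnab2 stayed called only without aNMP-2a+PBS_D7 replicate 1 or aNMP-2a+2b+PBS_D14 replicate 3. Neither call held without the 8 libraries rich in Myl7, where the log2 value was -0.27 ± 0.11 (SE) for Cacna1c and 0.60 ± 0.28 (SE) for Kcnab2. That fit keeps a single library in each of aNMP-2a_D3, aNMP-2a+2b_D7 and aNMP-2a+2b+PBS_D14. The loss of the calls cannot be told apart from the loss of replicates. Scn4b and Kcnk3 followed, with mean log2 fold changes of -1.06 ± 0.30 (SE, limma adjusted p = 0.059) and -0.41 ± 0.13 (SE, limma adjusted p = 0.0814), and did not pass.

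**Figure D3:**
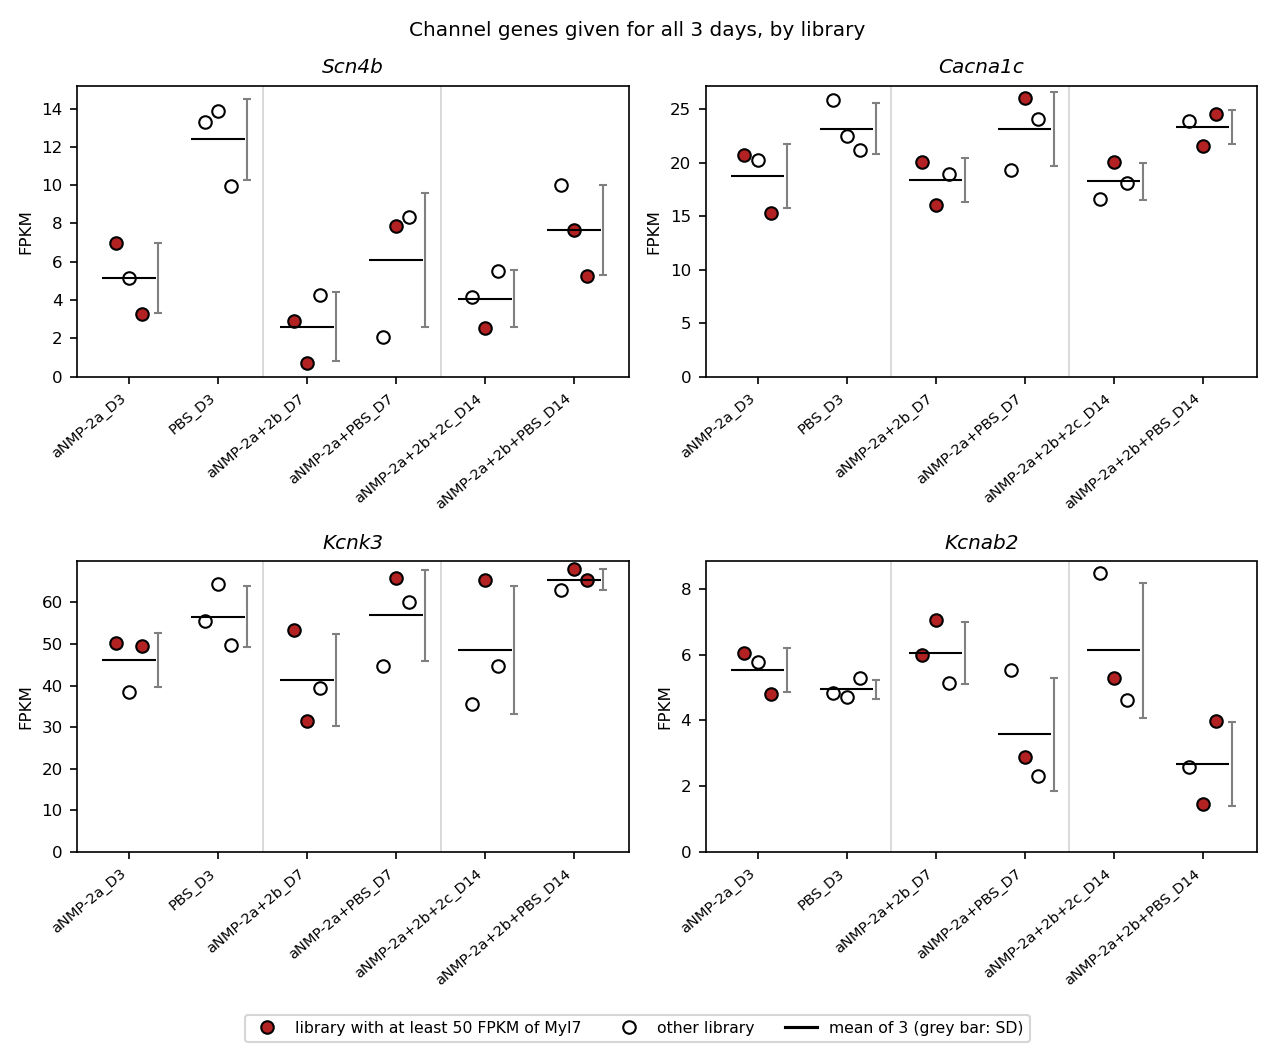
FPKM of Scn4b, Cacna1c, Kcnk3 and Kcnab2 in each library by group, with the mean of 3 (line) and SD (grey bar); red points are libraries with at least 50 FPKM of Myl7. Group means of Cacna1c are 18.7 against 23.2, 18.4 against 23.1 and 18.3 against 23.3 FPKM on days 3, 7 and 14, each last nanomedicine against PBS.

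In 1 of the 57 channel genes the libraries rich in Myl7 were all above the others. That gene passed the level limit through 5 values of 1 FPKM or more, all in libraries rich in Myl7, so this is a description only. The gene, Cacna2d2, an auxiliary calcium channel subunit, had 0.45 to 2.80 FPKM in the 8 libraries rich in Myl7 and 0.09 to 0.42 FPKM in the other 10. Among all genes tested, 0.0915% were higher without overlap in those 8 and 0.00762% lower. Cacna2d2 is under the level needed for a test in each comparison, and the aNMP-2a_D3 library low in Myl7 was level with PBS_D3: it had 2.80, 0.25 and 1.79 FPKM in aNMP-2a_D3, and 0.20, 0.25 and 0.17 FPKM in PBS_D3. Kcnj3, Kcnj5 and Cacna1h were mostly high in the same libraries. Kcnj3 had a median of 18.6 FPKM in the 8 and 11.4 FPKM in the 10, and Cacna1h 4.21 and 1.85 FPKM. Within the 8, aNMP-2a+2b_D7 replicate 2 was an exception, with 5.69 FPKM of Kcnj3, the lowest of 18 libraries, beside 382 FPKM of Myl7.

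**Figure D4:**
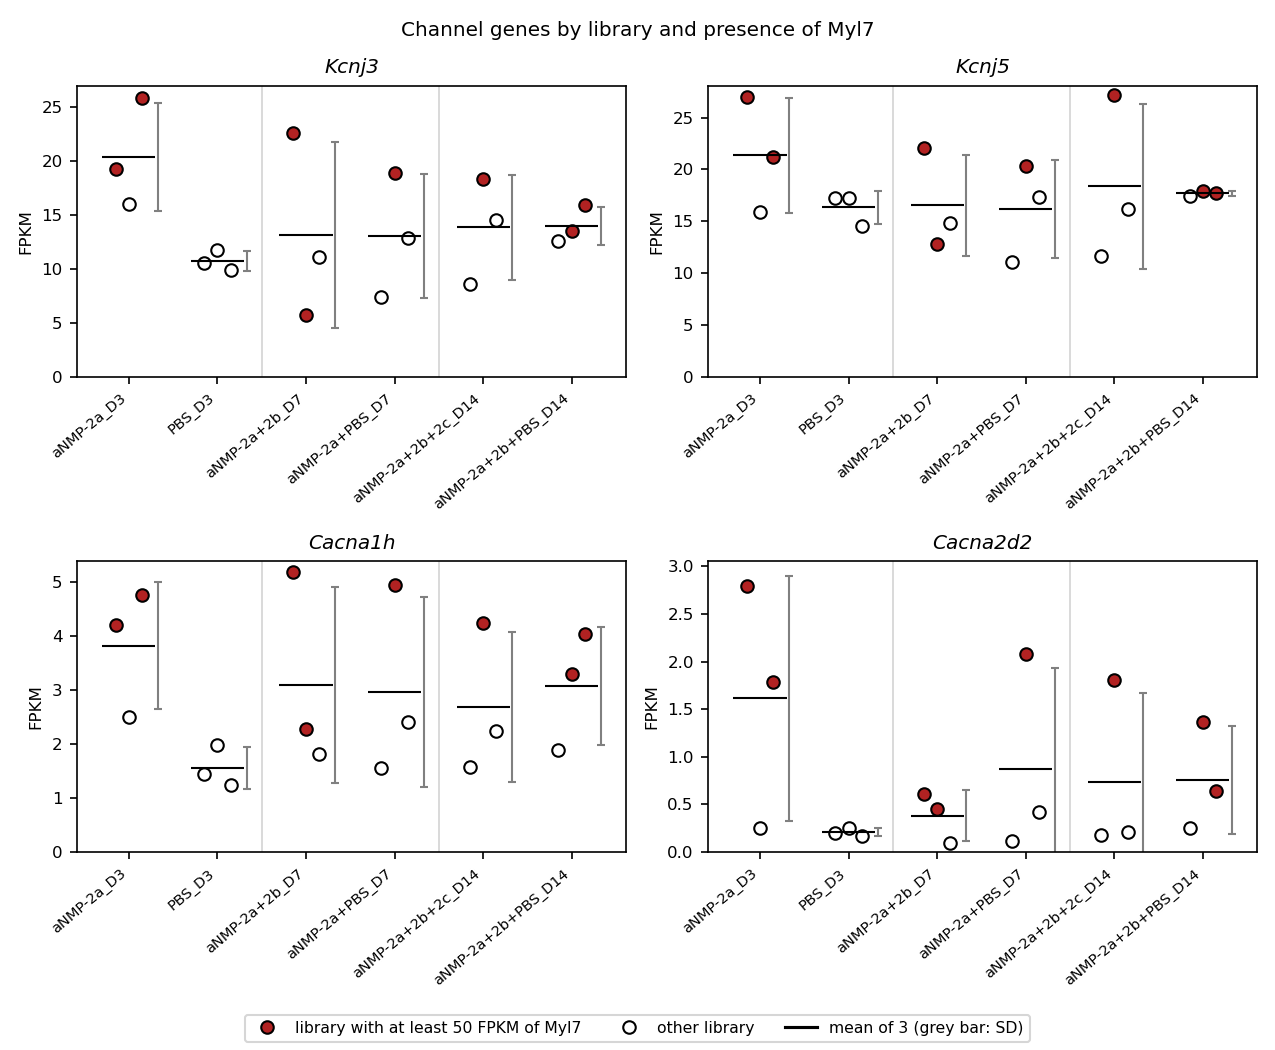
FPKM of Kcnj3, Kcnj5, Cacna1h and Cacna2d2 in each library by group, with the mean of 3 (line) and SD (grey bar, cut off at 0). Red points are libraries with at least 50 FPKM of Myl7; in Cacna2d2 all 8 lie above the other 10.

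Extreme values were counted by library. The aNMP-2a+2b_D7 replicate 2 library, with the lowest heart muscle sum, held the lowest of 18 values for 18 of the 57 genes, among them Kcnip2, Kcnk3, Kcnj11, Kcnj3, Kcnj2 and Scn4b. It held the highest for 7: Cacng7, Cacnb1, Kcne1, Kcnj15, Kcne1l, Kcne3 and Scn3b. The aNMP-2a+2b+2c_D14 replicate 1 library held the lowest for 7 genes and the highest for Cacnb3, Kcnab2, Kcnn4, Kcnd1 and Kcnab1. Both libraries thus stand at both ends, and how many of all genes they hold at an end was not counted. Kcnj15, an inward rectifier known from epithelia, had 8.89 FPKM in the first of these libraries and 4.91 FPKM in the other, against at most 3.65 FPKM elsewhere. Over the 18 libraries the coefficient of variation ran from 13.0% for Cacna2d1 to 109% for Cacna2d2, with 59.3% for Scn4b and 15.4% for Cacna1c.

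**Figure D5:**
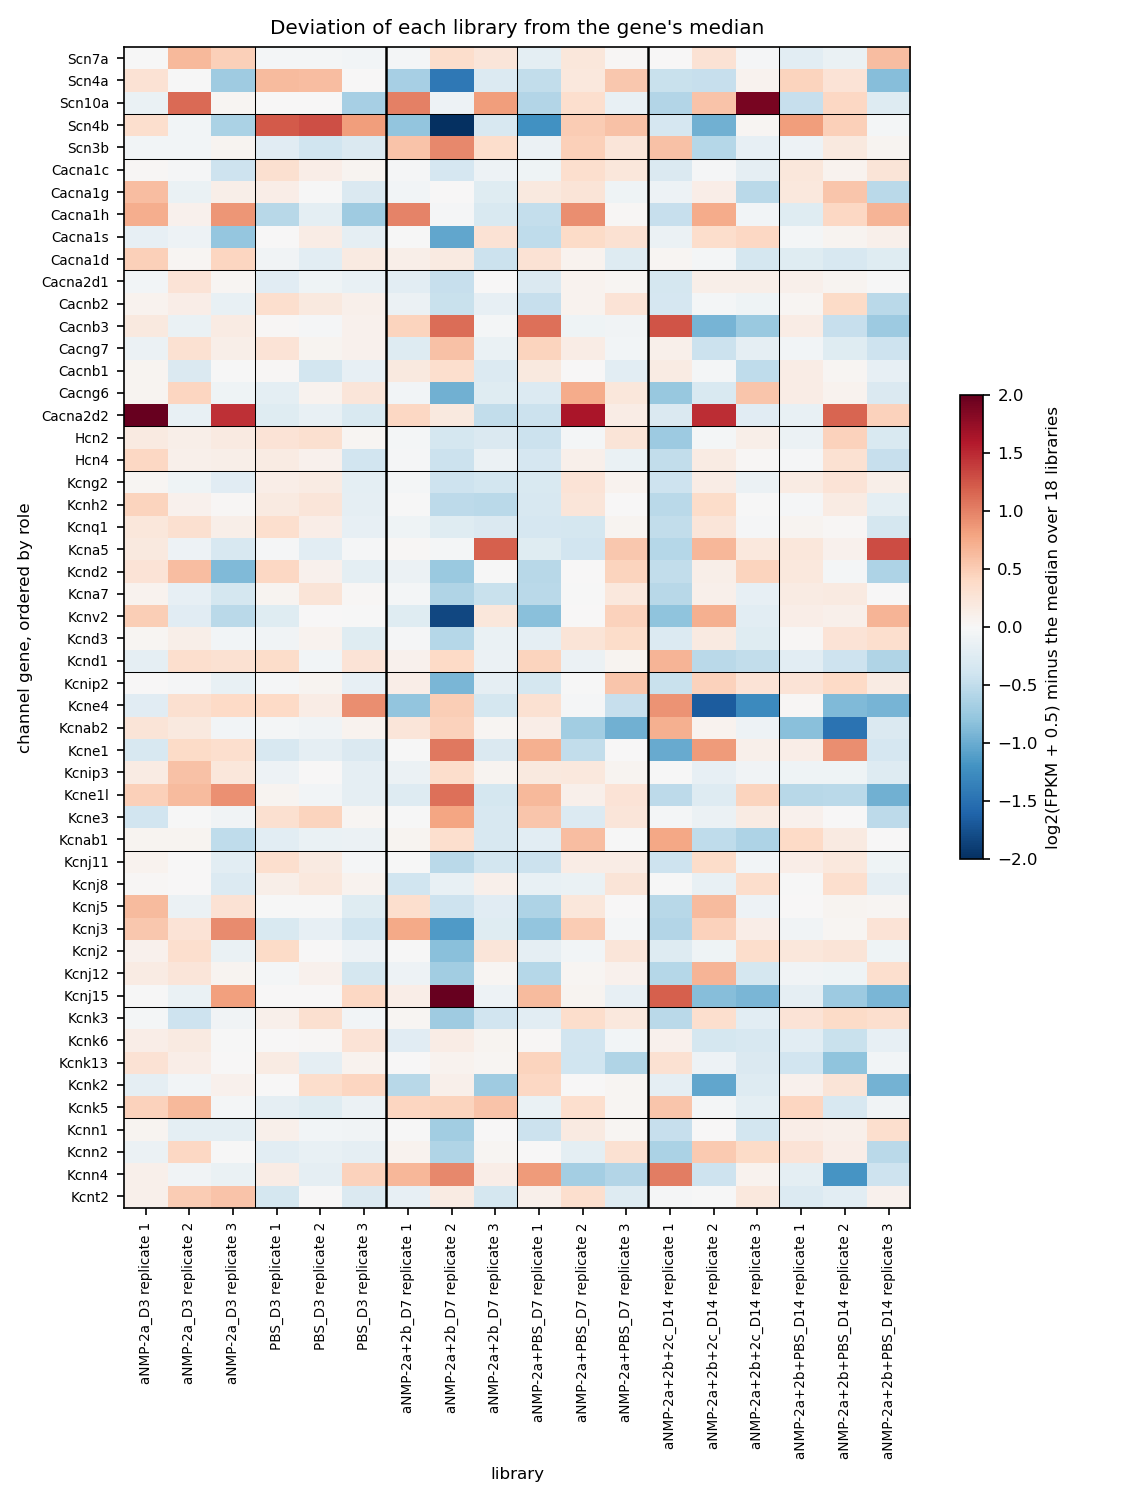
Log2(FPKM + 0.5) of 52 channel genes in each library minus the gene's median over 18 libraries, with genes ordered by role and colours capped at 2 in either direction. The column of aNMP-2a+2b_D7 replicate 2 is blue for most pore genes of muscle and red for Kcnj15, Cacnb3 and Kcne1.

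Partners and regulators of these channels that are not channel genes were read from a list of 34. They include subunits that join the pores (Abcc8, Abcc9, Dpp6), proteins that hold or move them (Ank2, Ank3, Cav3) and transcription factors that control them (Tbx5, Irx5, Etv1). On day 3, 28 were tested and 0 called, with a median log2 fold change of 0.17. On day 7, 29 were tested and 0 called, with a median of -0.12. On day 14, 28 were tested and 0 called, with a median of -0.11. Rrad, a small GTPase that restrains L-type channels, averaged 141 ± 32 FPKM in aNMP-2a_D3 and 230 ± 52 FPKM in PBS_D3 (SD, n = 3 each), and did not pass (log2 fold change -0.71, limma adjusted p = 0.172). On day 7 it averaged 124 ± 22 FPKM in aNMP-2a+2b_D7 and 222 ± 18 FPKM in aNMP-2a+PBS_D7 (SD, n = 3 each, log2 fold change -0.84, limma adjusted p = 0.249). On day 14 it had 133, 154 and 163 FPKM in aNMP-2a+2b+2c_D14, against 177, 234 and 157 FPKM in aNMP-2a+2b+PBS_D14. These day 14 groups overlap.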

How the data were processed

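Messenger RNA of hearts was sequenced in 18 libraries of 6 groups. The authors deposited 3 tables, 1 per comparison, with 1 column per library in FPKM, and the submitters' processing notes list RSEM 1.2.8, Bowtie2 2.2.5, HISAT2 2.1.0 and the build GRCm38.p6. The headers give no unit, which was taken from the deposited values: length-weighted sums varied by 1.38% between libraries and plain sums by 3.81%. A few channel genes and partners are counted but not given individually. Filters and annotation are not given in the sources used here. Depth is unknown, so no counting interval is given.

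Groups follow the sample titles. Genes that reached 1 FPKM in 3 or more of the 6 libraries of a comparison were tested on log2(FPKM + 0.5) with limma 3.58.1 in R 4.3.3 (trended, robust empirical Bayes), adjusted by Benjamini-Hochberg over all genes tested, two-sided, and called at an adjusted p under 0.05. The smallest p of an exact permutation test with 3 libraries a side is 0.1 (two-sided). Effects of the last injection, which differ in agent as well as day, were compared as contrasts in 1 fit of 18 libraries. That fit used genes with 1 FPKM or more in at least 3 of these libraries. The steps were tested on simulated data. The genes named are the main heart channel genes, called genes, those with the smallest p, the highest levels and those next to the limit. The channel genes, partner list, marker lists and tests were chosen with earlier results of these data known. The mean effect over 3 days was added after the values were seen. Positions are from RefSeq on GRCm38.p6, matched by symbol for all 57 genes. Figures used matplotlib 3.10.9 in Python 3.11.15. Alternatives were other pseudocounts (0.1 and 1), filters and scalings, a replicate block, 1 fit of all libraries, an atrial covariate, plain empirical Bayes and leaving libraries out.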

Additional observations from a re-analysis of the deposited data

How the results depend on the processing

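The 1 channel gene called on day 3 became 0 with no filter on low values, median-of-ratios scaling, upper-quartile scaling, 1 fit of all 18 libraries or an atrial score as covariate. Without libraries rich in Myl7 a lone treated library is left on day 3, so calls of that fit are not given. Leaving out 1 library gave 0 to 3 on day 3, 0 to 1 on day 7 and 0 on day 14. For the mean effect over 3 days, 2 calls became 1 with no filter, rescaling to TPM, median-of-ratios scaling or the replicate block. Neither held without libraries rich in Myl7, where some groups keep a single library. When 1 library was left out there were 0 to 5 calls, with 5 without aNMP-2a+PBS_D7 replicate 1. Same-numbered libraries deviated together in only some pairs (r from -0.20 to 0.37), and differently numbered ones had r from -0.55 to 0.35. Deviations from a mean of 3 depend on each other, so whether the numbers pair the samples cannot be told from these values. With the replicate block 1 channel gene was called on day 3 (Scn4b in place of Kcnj3, whose adjusted p in limma was 0.0902), and 231 genes in all against 230. Uncalled day 7 values changed sign without libraries rich in Myl7: Cacna1h -0.0779 (-0.0762 with the atrial covariate), Kcnj3 0.18, Kcnn1 0.20 and Scn4b 0.00208. Leaving those libraries out keeps aNMP-2a+2b_D7 replicate 3 as the lone treated library of that day. When 1 library was left out, day 7 log2 fold changes ran from -0.33 to 0.44 for Cacna1h, -0.58 to 0.37 for Kcnj3, -0.65 to 0.0806 for Kcne1l and -0.34 to 0.0682 for Kcnn1, and day 14 ones from -0.63 to 0.0161 for Scn4a, -0.30 to 0.22 for Kcnj3 and -0.54 to 0.0591 for Cacna1h. The cause was not tested. The median log2 fold change of the channel genes lay between -0.0372 and 0.0503 on day 3, -0.24 and -0.0795 on day 7, and -0.27 and 0.0120 on day 14, where it was positive only without aNMP-2a+2b+2c_D14 replicate 1. For differences between days, 0 channel genes were called in the 24 alternatives run. Without counts, precision at low FPKM cannot be given.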
